A study of Mus musculus with 6 samples.

Results

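Expression of 10 genes of protein folding in the endoplasmic reticulum (ER) was followed in macrophages: Hspa5, Hsp90b1, Calr, Pdia4, Sdf2l1, Creld2, Manf, Herpud1, Dnajb9 and Xbp1. They were taken by gene symbol, and all 10 were found among the 56691 genes of the deposited table. The cells were mouse bone marrow-derived macrophages, which are grown from bone marrow with the growth factor M-CSF, and they were sorted from co-cultures with mEC25 cells, which the labels call a cancer line. In the contact group (3 libraries) both cell types shared a dish, and in the transwell group (3 libraries) a membrane kept them apart, so that all 6 libraries come from macrophages that received M-CSF and shared medium with mEC25 cells. Macrophages that were never near mEC25 cells, and mEC25 cells alone, were not analysed here, and the sources used here do not give strain, age, culture time or sorting marker. Nothing in the labels ties a replicate to its own culture or animal, so the p-values cover only differences between these libraries, which may be technical.

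The ER folds proteins that are to be secreted or displayed on the cell surface. When unfolded proteins build up there, the unfolded protein response (UPR) starts from sensor proteins in the ER membrane, encoded by Ern1, Eif2ak3 and Atf6. The Ern1 kinase splices the Xbp1 messenger RNA so that it encodes an active transcription factor, and XBP1 and cleaved ATF6 then switch on chaperone genes. The Eif2ak3 kinase (PERK) slows translation and favours the transcription factor ATF4. In macrophages this machinery also serves the output of cytokines, lysosomal enzymes and surface receptors. The deposited counts are per gene, so spliced and unspliced Xbp1 RNA could not be told apart, and no protein was measured.

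Library totals ran from 20911880 to 22563835 counts in contact and from 18173192 to 18895818 in transwell libraries, and no member had fewer than 677 counts in any library. All 10 macrophage markers were present in every library, and their summed level was 14475 to 16442 FPKM (fragments per kilobase of gene length, scaled to library size) in contact and 16023 to 17088 FPKM in transwell libraries, with 3 markers called higher and 5 lower in contact. Contact libraries also held epithelial RNA: all 19 tested of 22 epithelial markers were higher there, and their summed level was 967 to 1702 FPKM against 4.57 to 5.23 FPKM, with none at 0 in any contact library and 6 to 10 at 0 in each transwell library. Krt5, a basal keratin gene, stood at 336, 511 and 281 FPKM in contact replicates 1 to 3 and at no more than 0.14 FPKM in any transwell library. Of 7 tested fibroblast markers, 5 were higher in contact and none lower, and the summed level of all 10 was 13.1 to 29.2 FPKM against 3.61 to 8.41 FPKM. The 10 markers of B cells and antibody-secreting cells, the latter with a large ER, summed to 118 to 127 FPKM in contact and 35.9 to 47.4 FPKM in transwell libraries. Most of that sum was Sdc1, which epithelial cells also express and which was called higher in contact (1.77 ± 0.09), while Ighm was called lower (-0.71 ± 0.22). Cd79a, Ms4a1, Pax5, Jchain, Mzb1 and Derl3 stayed at or below 0.53 FPKM in every library. The part of fibroblast and Sdc1-expressing cells in the results was not tested. In such bulk samples fewer cells of a type and less RNA per cell cannot be told apart.

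Of the 10 genes, 9 were lower in contact than in transwell libraries, and none was higher. The count of 9 stood beside 16.1% of the 14113 tested genes that were called lower in contact by edgeR's quasi-likelihood test, at a Benjamini-Hochberg adjusted p under 0.05. In either direction 37.5% were called. For the count of 0 higher, 21.4% of tested genes were called higher, no member had a positive change at an unadjusted p under 0.05, and DESeq2 and limma called 0 members higher too. The median log2 change of the members (contact minus transwell) was -0.62, beside a median of 0.03 over all tested genes. For 8 of the 10, contact FPKM values all lay below the transwell values, where 15.3% of tested genes did. Together the 10 genes took 0.294%, 0.287% and 0.302% of all counts in contact replicates 1 to 3 and 0.429%, 0.455% and 0.447% in transwell replicates 1 to 3. The groups did not overlap in this share, and an exact permutation test (two-sided) gave p = 0.10, the smallest that 3 against 3 libraries allow. The members were chosen with earlier results of these data known, so the test is no independent evidence. Calr, Hsp90b1 and Hspa5 made up most of the share, which therefore says little of the other members.

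**Figure D1:**
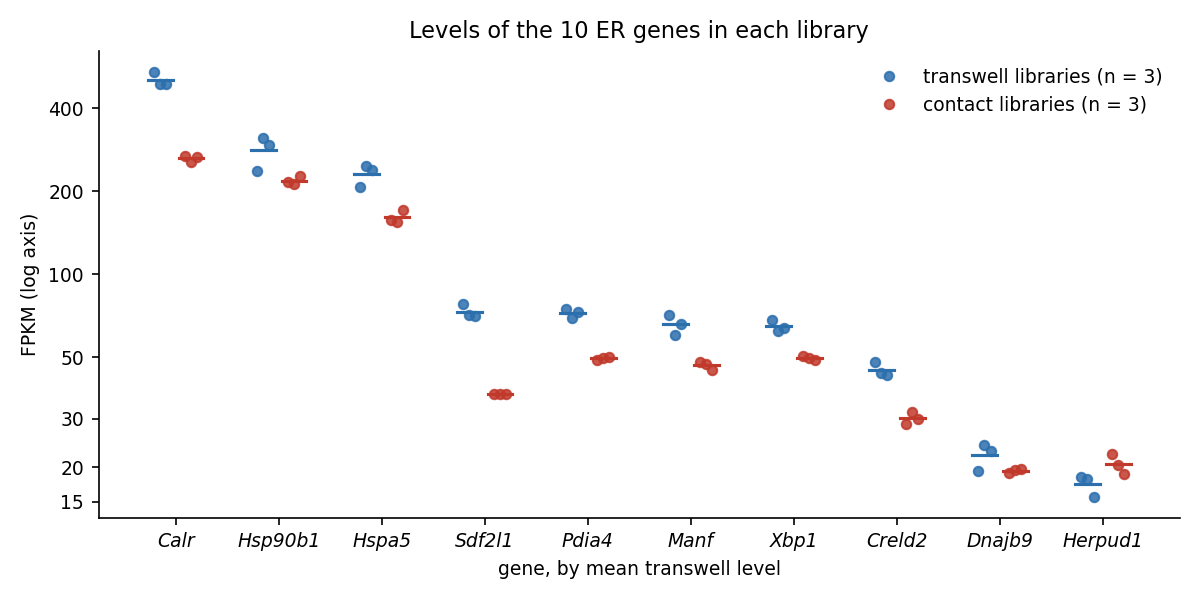
FPKM (log axis) of the 10 ER genes in each of the 3 transwell (blue) and 3 contact (red) libraries, replicates 1 to 3 from left to right, with lines at the group means. Contact points lie below all transwell points for 8 genes, overlap for Dnajb9 and lie above for Herpud1.

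Stretches of DNA before the RefSeq start sites of these genes are shown because UPR transcription factors are known to bind such sequences. The members were listed as ER chaperones and XBP1 targets, so finding such letters among them is no independent evidence about their change. Promoter entries in RefSeq (GRCm38.p6) were found for 9 of the 10 members, and Manf had none. RefSeq start sites can differ from the gene positions given below. For Hspa5, Hsp90b1, Calr and Dnajb9, part of the stretch searched lies inside the gene as positioned there. The 250 bases before the start site were searched on both strands for the ER stress response element ERSE (CCAAT and CCACG with 9 bases of any kind between them), for ERSE-II (ATTGG and CCACG with 1 base between them), for the core of the UPR element (TGACGTG) and for a composite site of ATF4 and C/EBP factors (TTGCATCA). ERSE letters occur in 0.113% of the 32851 promoter windows of this length, ERSE-II in 0.0304%, the UPR core in 1.65% and the composite site in 0.791%. Among these 9 members, 5 held ERSE or ERSE-II letters, and their windows are given 5′ to 3′ on the gene's strand, with matches in capitals. They lie at chr2:34771840-34772089 (plus strand), chr10:86705445-86705694 (minus), chr8:84846932-84847181 (minus), chr15:88819396-88819645 (plus) and chr8:94386179-94386428 (plus).
Hspa5: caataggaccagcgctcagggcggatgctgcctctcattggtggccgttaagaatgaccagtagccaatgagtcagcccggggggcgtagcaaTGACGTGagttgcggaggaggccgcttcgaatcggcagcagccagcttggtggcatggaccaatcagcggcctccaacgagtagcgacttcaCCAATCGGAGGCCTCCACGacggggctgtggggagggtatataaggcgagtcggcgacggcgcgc
Hsp90b1: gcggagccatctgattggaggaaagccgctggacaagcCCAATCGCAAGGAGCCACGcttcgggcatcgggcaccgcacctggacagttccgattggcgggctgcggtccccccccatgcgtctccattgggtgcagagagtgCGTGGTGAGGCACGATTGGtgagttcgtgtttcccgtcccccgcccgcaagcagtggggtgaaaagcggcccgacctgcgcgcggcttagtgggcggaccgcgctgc
Calr: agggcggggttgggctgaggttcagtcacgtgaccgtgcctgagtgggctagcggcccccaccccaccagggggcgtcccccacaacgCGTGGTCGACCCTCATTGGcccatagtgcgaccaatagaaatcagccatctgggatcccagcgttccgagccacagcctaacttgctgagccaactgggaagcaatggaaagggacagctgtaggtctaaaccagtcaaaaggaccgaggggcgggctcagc
Creld2: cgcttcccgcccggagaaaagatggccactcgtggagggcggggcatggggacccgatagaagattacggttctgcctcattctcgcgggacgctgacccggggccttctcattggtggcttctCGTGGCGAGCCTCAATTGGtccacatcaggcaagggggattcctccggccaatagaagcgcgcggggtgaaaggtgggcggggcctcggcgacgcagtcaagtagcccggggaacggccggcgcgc
Herpud1: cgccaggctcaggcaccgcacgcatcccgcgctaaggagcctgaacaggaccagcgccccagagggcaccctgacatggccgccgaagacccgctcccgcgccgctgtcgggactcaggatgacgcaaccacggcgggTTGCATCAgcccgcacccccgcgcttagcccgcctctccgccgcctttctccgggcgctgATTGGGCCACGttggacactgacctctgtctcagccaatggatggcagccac
In Hspa5 the capitals are the UPR core, starting 157 bases before the start site, and then ERSE, starting 65 bases before it. Hsp90b1 has ERSE on both strands (212 and 107 bases before the start), Calr has it on the opposite strand (162 bases) and so has Creld2 (126 bases). Herpud1 holds ERSE-II (52 bases) and the composite site of ATF4 and C/EBP factors (112 bases), and no whole ERSE match inside this window. Its window ends in CCAAT, 9 bases and CCAC, so an ERSE that runs past the start site would have been cut off. No matches overlapped. Pdia4, Sdf2l1, Dnajb9 and Xbp1 had none of these letters in the window, which says nothing of other spacings or of sites further away. A match is a description of the letters, and no binding was measured.

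Hspa5 and Hsp90b1 encode the abundant heat-shock-type chaperones of the ER, BiP and its larger HSP90-family partner. Hspa5 (ENSMUSG00000026864, chromosome 2, 34771970 to 34777547 on GRCm38, protein-coding) stood at 157, 154 and 172 FPKM in contact replicates 1 to 3 and at 207, 247 and 239.7 FPKM in transwell replicates 1 to 3. Positions of the other members are given on the same build, and all are protein-coding. Each contact value was under each transwell value, and the log2 change was -0.64 ± 0.08 (SE), or 35.7% lower (edgeR adjusted p = 0.000267). Hsp90b1 (chromosome 10, 86690209 to 86705509) read 216, 213 and 227 FPKM in contact and 236, 313 and 296 FPKM in transwell libraries. Transwell replicate 1 was the closest to the contact values, and the groups still did not overlap. Its log2 change was -0.48 ± 0.10 (adjusted p = 0.00394), a call that ended after quantile normalization in limma (adjusted p = 0.0604). Over all 14 alternatives tried, the Hsp90b1 adjusted p ran from 1.1e-06 to 0.0604.

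Dnajb9 and Sdf2l1 encode partners of BiP. Dnajb9 (chromosome 12, 44205559 to 44210326), a J-domain cochaperone gene and a target of XBP1, showed the weakest fall of the 9. It read 19.0, 19.5 and 19.7 FPKM in contact and 19.35, 24.1 and 22.9 FPKM in transwell libraries, so that transwell replicate 1 lay among the contact values. The log2 change was -0.30 ± 0.09 (adjusted p = 0.0291). The call ended without contact replicate 1 (adjusted p = 0.0913), contact replicate 2 (0.0873), contact replicate 3 (0.0595), transwell replicate 2 (0.0577) or transwell replicate 3 (0.111), and held without transwell replicate 1 (adjusted p = 0.00471). Over its 14 alternatives the adjusted p ran from 0.00471 to 0.146, and 9 of them ended the call.

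Sdf2l1 (chromosome 16, 17130138 to 17132383), whose product acts with the BiP chaperone cycle, had the largest fitted fall of the 10. Contact libraries read 36.8, 36.8 and 36.7 FPKM, a range narrower than that of any other member. Transwell libraries read 78.05, 71.0 and 70.8 FPKM. The log2 change was -1.11 ± 0.08, or 53.7% lower (adjusted p = 6.2e-06). Its paralog Sdf2, one of the other folding genes listed, had a mean of 42.2 ± 2.25 FPKM with contact and 38.0 ± 2.39 FPKM without (SD, n = 3 each), with a log2 change of 0.03 ± 0.09 (adjusted p = 0.80). The difference between the paralogs was not tested.

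Calr (chromosome 8, 84841850 to 84846934) encodes calreticulin, a calcium-binding lectin that holds glycoproteins during folding and helps to assemble MHC class I molecules. It had the highest level of the 10 in both groups and nearly the same relative fall as Sdf2l1. Its values were 269, 255 and 267 FPKM in contact and 542, 491 and 492 FPKM in transwell libraries. The groups were far apart, with a log2 change of -1.06 ± 0.07, or 52.1% lower (adjusted p = 4.7e-06). Canx, the gene of its membrane-bound relative calnexin, read 128, 137 and 137 FPKM in contact and 125, 149.9 and 143 FPKM in transwell libraries, which overlapped (log2 change -0.17 ± 0.08, adjusted p = 0.125).

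Pdia4 and Creld2 serve disulfide bonds. Pdia4, a protein disulfide isomerase gene (chromosome 6, 47796141 to 47813430), read 48.8, 49.85 and 50.2 FPKM in contact and 74.9, 69.2 and 72.8 FPKM in transwell libraries, with no overlap. Its log2 change was -0.66 ± 0.07 (adjusted p = 5.9e-05). Creld2, which encodes an ER protein with disulfide isomerase activity (chromosome 15, 88819646 to 88826683), read 28.6, 31.65 and 29.9 FPKM in contact and 47.9, 43.8 and 43.25 FPKM in transwell libraries. The gap between the groups was wider than the spread within either, and the log2 change was -0.70 ± 0.08 (adjusted p = 0.000144).

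Manf (chromosome 9, 106838312 to 106891979) encodes a small protein of the ER that can be secreted and that protects stressed cells. It read 48.2, 47.2 and 45.1 FPKM in contact and 71.3, 60.04 and 66.2 FPKM in transwell libraries. Transwell values were spread more widely than contact values but stayed above them, with a log2 change of -0.61 ± 0.08 (adjusted p = 0.000323). In GENCODE M21 the Manf gene overlaps Rbm15b on its own strand and Dcaf1 on the other, Hsp90b1 overlaps a pseudogene and short noncoding genes, and Herpud1 overlaps an antisense gene. The sources used here do not give the strand setting of the counting, so shared reads could not be told apart.

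Herpud1 (chromosome 8, 94386438 to 94395377) encodes a membrane protein that recruits the machinery of ER-associated degradation, and it is a target of both ATF6 and ATF4. It was the one member that was not called. Its values were 22.3, 20.3 and 18.9 FPKM in contact and 18.4, 18.04 and 15.6 FPKM in transwell libraries. All contact values lay above all transwell values in FPKM, as they did for 35.8% of tested genes, while the fitted log2 change was 0.13 ± 0.10 (edgeR adjusted p = 0.357). FPKM carries no correction for library composition, and TMM scaling moved contact libraries down relative to transwell libraries, with factors of 1.04 to 1.05 against 0.953 to 0.970. Over 14 alternatives the Herpud1 change stayed positive, from 0.05 to 0.24, and the adjusted p ran from 0.0654 to 0.782.

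Xbp1, the transcription factor gene (chromosome 11, 5520659 to 5525893), read 50.5, 49.7 and 49.1 FPKM in contact and 68.6, 62.1 and 64.05 FPKM in transwell libraries. The groups did not overlap, and the log2 change was -0.50 ± 0.07, or 29.3% lower (adjusted p = 0.000405). This is total Xbp1 RNA, whose level does not say how much was spliced.

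**Figure D2:**
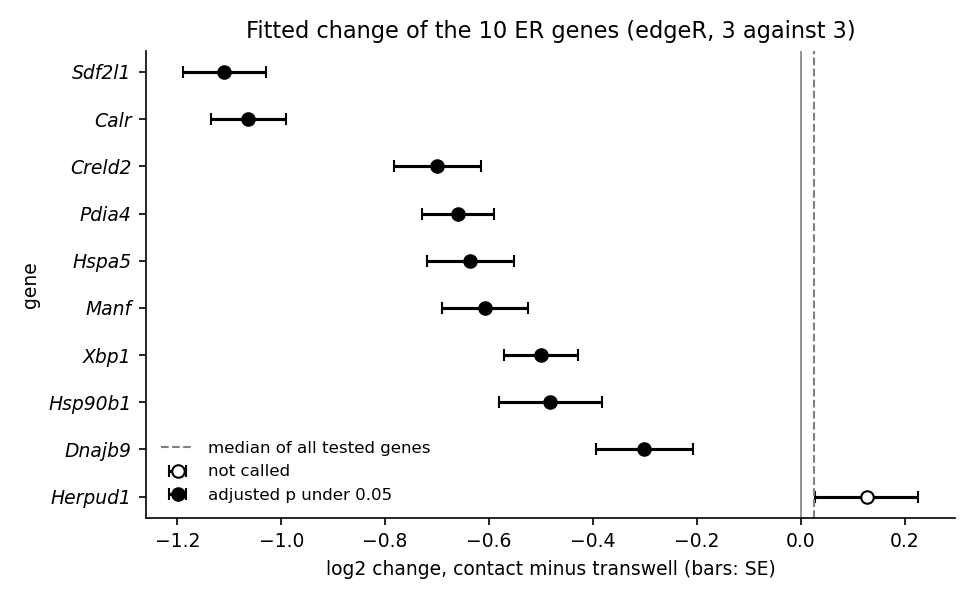
Fitted log2 change (contact minus transwell, edgeR, 3 against 3 libraries) of each of the 10 ER genes, with bars for the SE, filled points for adjusted p under 0.05 and a dashed line at the median of all tested genes. Sdf2l1 (-1.11) and Calr (-1.06) lie furthest to the left, and Herpud1 (0.13, open point) is the only gene to the right of 0.

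In contact libraries the order by mean FPKM was Calr (264), Hsp90b1 (218), Hspa5 (161), Xbp1 (49.8), Pdia4 (49.6), Manf (46.8), Sdf2l1 (36.8), Creld2 (30.04), Herpud1 (20.5) and Dnajb9 (19.4). Neighbours in this order overlapped between libraries for Xbp1 with Pdia4 and for Herpud1 with Dnajb9. In transwell libraries Calr (508.5), Hsp90b1 (282) and Hspa5 (231) again came first, followed by Sdf2l1 (73.3), Pdia4 (72.3), Manf (65.9), Xbp1 (64.9), Creld2 (45.0), Dnajb9 (22.1) and Herpud1 (17.3). There Hsp90b1 overlapped with Hspa5, and each of Sdf2l1, Pdia4 and Manf overlapped with the next gene in the order. Sdf2l1 had rank 4 in transwell and rank 7 in contact libraries, and Herpud1 and Dnajb9 changed places at the lower end.

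Over the tested genes, transwell replicate 1 differed most from the other transwell libraries. Chi-square per degree of freedom was 24.4 and 13.4 against transwell replicates 2 and 3, and 6.2 between those. Hspa5, Hsp90b1 and Dnajb9 were lowest in transwell replicate 1, while Calr, Pdia4, Sdf2l1, Creld2, Manf, Herpud1 and Xbp1 were highest there. How many other genes were lowest or highest there was not counted, so the split cannot be called particular to the members. Transwell replicate 1 also had a summed level of 8 neutrophil markers of 1123 FPKM. Transwell replicates 2 and 3 stood at 532 and 507 FPKM, and contact libraries at 792 to 1110 FPKM. The part of these cells in the split was not tested. The geometric mean of the 10 members was nearly level within each group, at 58.7, 58.3 and 58.6 FPKM in contact and 81.5, 81.7 and 80.8 FPKM in transwell libraries. Across the contact libraries it moved by less than 1 FPKM, while the summed epithelial markers went from 1128 to 1702 and 967 FPKM in replicates 1 to 3. The part of epithelial RNA in the difference between groups was not tested. Leaving out contact replicate 2, which had the most epithelial RNA, gave a median log2 change of -0.60 for the members, and 8 of them were called lower. Without contact replicate 1 or contact replicate 3 the median was -0.63, also with 8 called lower. The contact libraries that remained held epithelial RNA in each of these fits, so the fits cannot show its part.

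**Figure D3:**
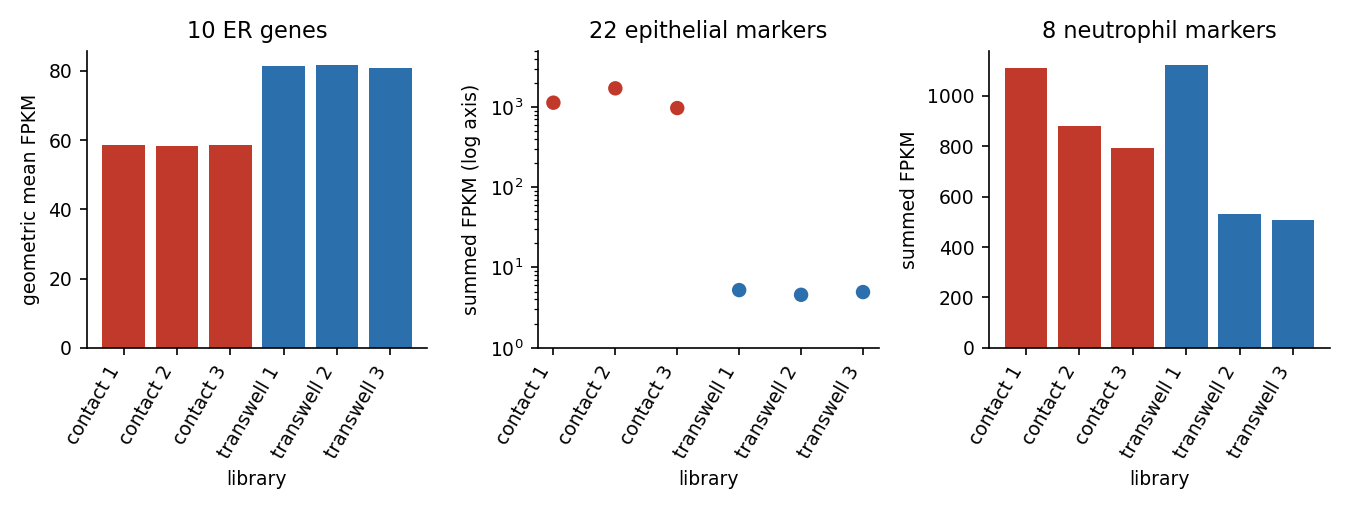
Per library, the geometric mean FPKM of the 10 ER genes (left), the summed FPKM of 22 epithelial markers on a log axis (middle) and the summed FPKM of 8 neutrophil markers (right), with contact in red and transwell in blue. The ER genes stand at 58.3 to 58.7 in contact and 80.8 to 81.7 in transwell libraries, epithelial markers are high in contact libraries, and neutrophil markers are highest in transwell replicate 1.

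Other genes of the pathway were taken from lists by role. The counts of every list stand beside 16.1% of all tested genes called lower and 21.4% called higher. Of 30 other folding enzymes, 18 fell and 2 rose, with a median log2 change of -0.34. Hyou1, the gene of a large chaperone that recharges BiP, stood at 24.3 ± 1.62 FPKM (SD, n = 3) in contact against 44.8 ± 2.08 FPKM in transwell libraries (log2 change -0.996 ± 0.08, adjusted p = 1.1e-05). Fkbp2, a prolyl isomerase gene (-0.63 ± 0.09), and Pdia6, a disulfide isomerase gene (-0.62 ± 0.07), fell too. The 2 that rose were Ero1b, an ER oxidase gene (0.35 ± 0.08), and Fkbp7 (0.83 ± 0.28), which is low at 1.19 FPKM in contact. The Fkbp7 call ended when any 1 library was left out, and 1 of the list was then called higher in every case except without transwell replicate 2, where Tmx3 was called as well as Ero1b.

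Of 11 genes of the oligosaccharyl transferase, which attaches glycans to entering proteins, 9 fell and 1 rose, with a median of -0.51. Rpn1 (-0.70 ± 0.09), Ddost (-0.56 ± 0.08) and Stt3b (-0.55 ± 0.07), all subunit genes, fell, and Tusc3, a subunit with oxidoreductase function, rose (0.41 ± 0.09). Of 22 genes of the translocation channel, signal recognition and signal peptidase, 10 fell and none rose, with a median of -0.25. Sec11c, a signal peptidase subunit (-0.63 ± 0.08), Sec61a1, the channel itself (-0.61 ± 0.07), and Srprb, a receptor subunit (-0.51 ± 0.08), fell. For the 0 that rose in edgeR, 0 had an unadjusted p under 0.05 and DESeq2 called 0. Limma called 1 higher on log2(FPKM + 1) and 2 after quantile normalization, and without contact replicate 3 edgeR called Srp9 higher.

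Genes of ER-associated degradation, which export misfolded proteins to the proteasome, were taken next. Of 23 tested, 9 fell and none rose in edgeR, with a median of -0.17. Aup1 (-0.47 ± 0.08), the lectin gene Os9 (-0.45 ± 0.08) and the channel gene Derl1 (-0.37 ± 0.08) were among those that fell. The count of 9 became 5 without contact replicate 1, contact replicate 2 or transwell replicate 3. On log2(FPKM + 1) in limma it was 5, with 3 genes (Ube2j1, Ube2j2 and Nploc4) called higher, while edgeR gave 0 higher at an unadjusted p under 0.05 and DESeq2 called 0. Of 30 genes of transport between ER and Golgi, 16 fell and 2 rose, with a median of -0.23. The cargo receptor gene Lman1 (-0.59 ± 0.09) and the coat genes Sec24d (-0.57 ± 0.10) and Sec16a (-0.48 ± 0.09) fell.

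The 2 transport genes that rose encode receptors for the retrieval signal that soluble ER chaperones carry at their end. Kdelr2 read 39.0, 43.3 and 37.3 FPKM in contact and 30.2, 25.8 and 31.0 FPKM in transwell libraries (0.34 ± 0.10, adjusted p = 0.0212). Its call ended without contact replicate 1, contact replicate 2 or transwell replicate 2, when 1 gene of the list was called higher. Kdelr3 was low, at 3.08, 3.05 and 1.44 FPKM in contact and 0.23, 0.23 and 0.27 FPKM in transwell libraries (3.24 ± 0.40, adjusted p = 0.000165). Kdelr1 read 57.4 ± 5.11 FPKM in contact and 56.6 ± 4.26 FPKM in transwell libraries, with a log2 change of -0.09 ± 0.09 (adjusted p = 0.467). Contact replicate 3, which had the lowest epithelial marker sum, was the lowest contact library for both Kdelr2 and Kdelr3. Kdelr2 had the same order over the contact libraries as that sum and Kdelr3 did not, and 3 libraries can share an order by chance. The part of epithelial RNA in these rises was not tested.

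Of 14 tested sensors and transcription factors of the UPR, 4 fell and 1 rose, with a median of -0.19. Over all tested genes 16.1% were called lower and 21.4% higher. In either direction the share called in this list was near the 37.5% over all tested genes. Ern1, the kinase that splices Xbp1, read 5.02, 4.94 and 5.07 FPKM in contact and 4.29, 5.31 and 4.96 FPKM in transwell libraries (-0.07 ± 0.09, adjusted p = 0.604). Eif2ak3 stood at -0.24 ± 0.09 (adjusted p = 0.059), Atf6 at -0.27 ± 0.11 (0.0781) and Atf4 at 0.19 ± 0.08 (0.0956). Without transwell replicate 1, Atf4 was called higher, which made 2 genes of this list, and Eif2ak3 and Atf6 were called lower. Eif2ak3 was also called lower with DESeq2 size factors and after quantile normalization, Atf6 was called lower in DESeq2 and without a filter, and Atf4 was called higher in all 3 limma fits. Ddit3, the gene of the stress factor CHOP that ATF4 induces, fell from 9.92, 9.86 and 10.2 FPKM in transwell to 5.48, 5.19 and 4.60 FPKM in contact libraries (-1.09 ± 0.11, adjusted p = 4.8e-05). The symbol Ddit3 has 2 entries, and these values are of the one with more counts. Creb3 (-0.47 ± 0.08), Atf6b, a relative of Atf6 (-0.35 ± 0.09), and Atf3 (-0.26 ± 0.08) fell as well, and Cebpb, a partner of ATF4, rose (0.55 ± 0.10). The Atf3 call ended without contact replicate 1, contact replicate 2, transwell replicate 1 or transwell replicate 3. On log2(FPKM + 1) in limma 2 were called lower and 2 higher.

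The list for the PERK and ATF4 arm went both ways, with 4 of 11 tested genes higher and 2 lower. Its median was 0.16, and over all tested genes 21.4% were called higher and 16.1% lower. Ppp1r15a, which restores translation after stress (0.61 ± 0.09), Nupr1, a stress-induced nuclear protein gene (0.74 ± 0.10), and Asns, the asparagine synthetase gene (0.72 ± 0.18), rose. Vldlr rose at a very low level, with 0.30 ± 0.0361 against 0.06 ± 0.0265 FPKM (SD, n = 3). Sesn2 (-0.71 ± 0.09) and Wars, a tRNA synthetase gene (-0.59 ± 0.08), fell. Asns read 8.20, 9.95 and 5.86 FPKM in contact and 5.11, 4.08 and 4.25 FPKM in transwell libraries. Its contact libraries had the same order as their epithelial marker sums, while those of Ppp1r15a, Nupr1 and Vldlr did not. As above, 3 libraries can share an order by chance. The part of epithelial RNA in these rises was not tested. Leaving out contact replicate 2 or transwell replicate 3 ended the Asns call and left 3 genes of this list called higher.

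**Figure D4:**
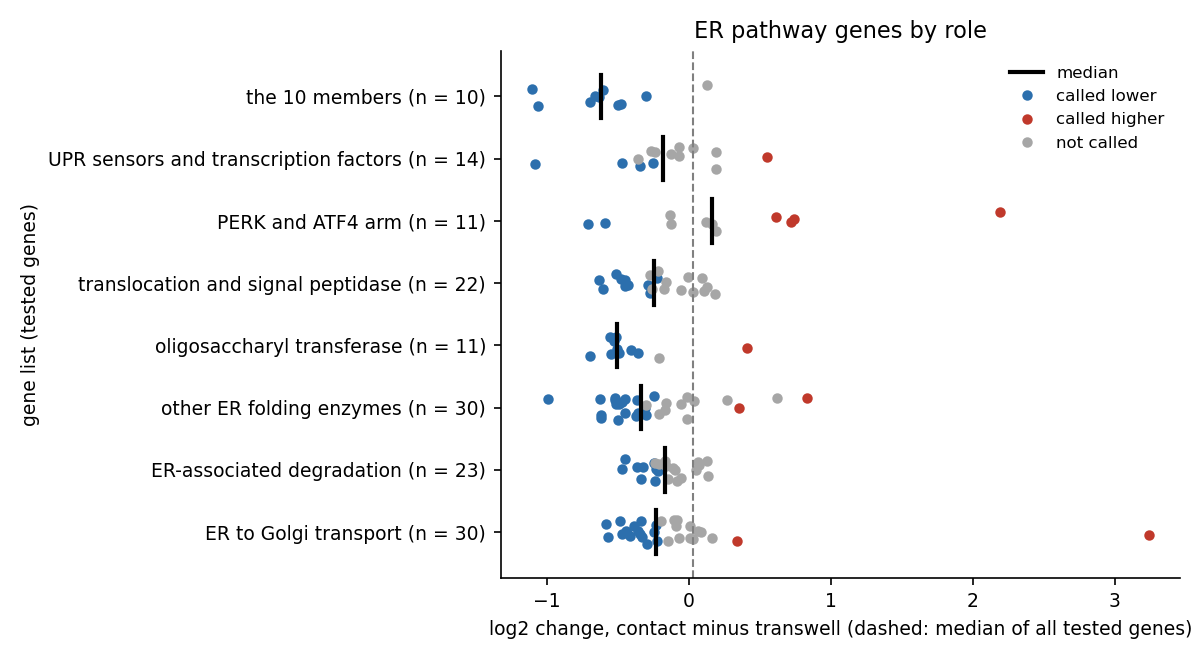
Log2 change (contact minus transwell, edgeR) of every tested gene in each list of ER pathway genes, coloured by call at an adjusted p under 0.05, with a bar at each list's median and a dashed line at the median of all tested genes. Medians run from -0.62 for the 10 members and -0.51 for oligosaccharyl transferase to 0.16 for the PERK and ATF4 arm.

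Among the members, Pdia4 lay nearest to their mean profile and Herpud1 furthest. Profiles were compared by the root mean square difference of log2 levels (counts scaled to library size), centred on each gene's mean, over the 6 libraries. This distance to the mean of the 10 members, of which each member is a part, was 0.051 for Pdia4, 0.064 for Xbp1, 0.079 for Manf and 0.37 for Herpud1. The distance takes in the change between the groups, so it is not separate information from that change. Of 6197 other genes with a mean of at least 5 FPKM, those nearest to the mean profile were Idh1 (0.018), Ppp1r12c (0.020), Trim25 (0.023), Epsti1 (0.027) and P2rx4 (0.028). Idh1, which encodes the cytosolic isocitrate dehydrogenase, read 80.0 ± 1.19 FPKM in contact and 113 ± 1.97 FPKM in transwell libraries. Idh1, Ppp1r12c, Trim25, Epsti1 and P2rx4 had log2 changes of -0.61, -0.60, -0.63, -0.54 and -0.61, beside the members' median of -0.62. Nearest to Hspa5 alone were Myof (0.035), a membrane repair gene, and Med23 (0.044), a Mediator subunit gene.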

How the data were processed

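The authors deposited raw read counts and FPKM per Ensembl gene for the 6 libraries, per the file headers. Of FPKM values with a count above 100, 99.9% lay within 1% of the value computed from count, exonic length and library total. The submitters' processing notes name the builds GRCm38 and mm10. Aligner, counter and strand of counting were not given in the sources used here. Coordinates in the deposited table matched GENCODE M21 (GRCm38) for 1472 of 52073 shared gene IDs, so positions come from M21 by ID. Groups and replicate numbers come from the sample titles.

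The 14113 genes that passed filterByExpr at a minimum count of 10 were scaled with TMM and given edgeR's quasi-likelihood test in R 4.3.3 (package versions DESeq2 1.42.0, edgeR 4.0.16 and limma 3.58.1), with Benjamini-Hochberg adjustment over all tested genes and a threshold of 0.05. The SE is the absolute log2 change over the square root of F. Chi-square per degree of freedom between replicates was 6.2 to 24.4, so no libraries agreed within sampling noise. Tested on simulated counts for contact against transwell (13896 genes), calls were made for 64 of the 65 genes set to a 4-fold change, 59 of the 66 set to 2-fold and 32 of the 67 set to 1.5-fold. Of 161 calls, 6 were false. The simulation changed only these genes and gave all genes the same dispersion, while 37.5% of genes were called in the data. Its rates need not hold for the data.

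The members and lists were chosen with earlier results of these data known. Named genes are the members, 5 UPR genes, up to 3 called rises and 3 falls per list with at least 5 FPKM in the higher group, the nearest profiles and markers. Atf3, Vldlr, Fkbp7, Kdelr3, Kdelr1, Canx, Sdf2, Sdc1, Ighm, Tmx3, Srp9, Ube2j1, Ube2j2, Nploc4 and the genes of the closing section were named after their values were seen. Alternatives were other scalings, filters, pseudocounts (1 and 0.1) and tools, a replicate block, and each library left out. Promoters are RefSeq's (GRCm38.p6). Figures were drawn with matplotlib 3.10.9.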

Additional observations from a re-analysis of the deposited data

How the results depend on the processing

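Of 140 recomputed log2 changes of the members (14 alternatives each), none changed sign and 10 lost their call, 9 of Dnajb9 and 1 of Hsp90b1. The Dnajb9 values were -0.27 with only genes of a mean of at least 1 FPKM, -0.17 and -0.18 in limma with pseudocounts of 1 and 0.1, and -0.23 after quantile normalization, beside those without single libraries. Members called lower numbered 7 to 9 over the alternatives, and 8 to 9 without single libraries. Over all genes the split of calls moved with the scale, from 3016 higher and 2270 lower in edgeR to 3811 and 1422 in limma on log2(FPKM + 1), 3900 and 1442 with a pseudocount of 0.1, and 2390 and 3418 after quantile normalization. The median change of all tested genes was 0.03, 0.09, 0.14 and -0.06 in these fits, and that of the members -0.62, -0.50, -0.50 and -0.51.

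UPR sensors and factors had 2 genes called higher in the 3 limma fits and 2 called lower with pseudocounts of 1 and 0.1. Other folding enzymes had 1 called higher in DESeq2, without a filter, with a mean of at least 1 FPKM, after quantile normalization and with the replicate block. ER-associated degradation had 3 higher and 5 lower in limma with both pseudocounts, translocation genes 1 higher with a pseudocount of 1 and 2 with 0.1 or quantile normalization, and ER to Golgi genes 4 higher with both pseudocounts. Without single libraries, the counts ran from 1 to 2 (UPR, higher), 1 to 2 (folding, higher), 5 to 8 (degradation, lower), 0 to 1 (translocation, higher) and 1 to 2 (Golgi, higher). The cause was not tested.

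Same-numbered contact and transwell libraries did not deviate together (correlations over genes of -0.083, -0.445 and 0.056), and no contact library correlated best with its own number. With the replicate block, 2994 genes were higher and 2130 lower, and 9 members were called lower.

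Each member had at least 677 counts in every library, and with 3 libraries a group the spread itself is known only roughly. Strand, splicing of Xbp1 and mEC25 expression alone were not analysed here.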

Other observations

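Outside the members, 31 genes had ERSE letters in the 250 bases before a RefSeq start site, and 11 of them were tested. Of these, 4 were called lower and 2 higher, with a median log2 change of -0.17. Over the 10252 tested genes outside the members with a promoter window, 1773 (17.3%) were called lower and 2245 higher, and the median was 0.02. The 4 lower genes were Alg12, a mannosyltransferase gene of glycan assembly (-0.74 ± 0.10), Pdia6 (-0.62 ± 0.07), Dnajc3, a BiP cochaperone gene (-0.45 ± 0.11), and Syvn1, the ubiquitin ligase gene of ER-associated degradation (-0.34 ± 0.08). Canx (-0.17) also held ERSE letters and was not called, and Ero1b (0.35 ± 0.08) and Pan2 (0.43 ± 0.10) held them and rose. Pdia6, Dnajc3, Syvn1, Canx and Ero1b were already counted in the lists by role, so these counts are not independent of those lists. Of 6 tested genes with ERSE-II letters, 1 was lower (Nucb1, a calcium-binding Golgi protein gene, -0.53 ± 0.08) and 2 were higher, Rcl1 (0.77 ± 0.15) and Lgalsl (4.31 ± 0.26).

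Of 268 tested genes with the UPR core in the window, 51 (19.0%) were lower and 52 higher (median 0.02). Of 68 with the composite site of ATF4 and C/EBP factors, 20 (29.4%) were lower and 16 higher (median -0.02). Beside them stand the 17.3% lower, and the 2245 of 10252 higher, over all tested genes outside the members with a window. These counts describe letters near start sites and were not tested for enrichment.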
